A study of Homo sapiens with 6 samples.

Results

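PDCD4 and the mRNAs of the eIF4F complex were analysed in A549 cells, a standard cell line of human lung adenocarcinoma, with and without the MIR21 gene. The 10 genes were taken by symbol from a table of 58174 genes: PDCD4, the helicase genes EIF4A1 and EIF4A2, the scaffold genes EIF4G1, EIF4G2 and EIF4G3, the cap-binding gene EIF4E, its inhibitors EIF4EBP1 and EIF4EBP2, and the helicase cofactor EIF4B. All 10 were found and all 10 passed the filter on low values. Parental A549 cells (Ctrl) and MIR21-deleted A549 cells (MIR21-KO) were each represented by 3 polyA RNA-seq libraries, and both were harvested 48 h after seeding. MIR21-KO cells went back to single sorted cells that had received Cas9 together with a guide RNA pair, and Ctrl cells were a population. How many clones stand behind the 3 MIR21-KO libraries is not given in the sources used here, so differences between clones and effects of the deletion cannot be told apart. The labels number the libraries as replicates without naming separate cultures, and p-values therefore measure the spread between these libraries, which may be partly technical.

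Cap-dependent translation starts when eIF4E, bound to the mRNA cap, joins the scaffold eIF4G and the RNA helicase eIF4A to form eIF4F, which then recruits the small ribosomal subunit through eIF3. PDCD4 is a tumor suppressor that binds eIF4A and keeps it out of the complex, and the 4E-BPs, encoded by the EIF4EBP genes, compete with eIF4G for eIF4E. Both kinds of inhibitor are regulated by kinases of the mTORC1 pathway, and PDCD4 mRNA is a well-known target of miR-21-5p, an abundant miRNA in tumors.

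The sequences that connect the deleted gene with these mRNAs are the mature miRNA and its matches in 3′ UTRs. They are shown because only some of the 10 genes carry one. In the miRNA, taken from RefSeq (GRCh38.p14, chr17:59841273-59841294, plus strand), capitals mark the seed, bases 2 to 8. In the UTR windows, taken from GENCODE 29 (GRCh38) and written as DNA, capitals mark the bases that match the seed, including the A opposite base 1 of the miRNA where it is present.
hsa-miR-21-5p: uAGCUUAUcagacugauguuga
PDCD4, 8mer: tattctaATAAGCTAccttttg
EIF4EBP2, 7mer-m8: ctcaggaATAAGCTggatctcc
EIF4EBP2, 7mer-m8: aatctagATAAGCTgaaagata
EIF4EBP2, 7mer-A1: ttagatgtTAAGCTAttgagct

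The PDCD4 window lies on the plus strand at chr10:110898323-110898344, inside the 3′ UTR, and its match starts at base 242 of a UTR of 1918 bases. PDCD4 was the single member with an 8mer, the match of 8 letters ATAAGCTA, and it held a further 6mer (TAAGCT) directly after base 388. EIF4EBP2 had a UTR of 6871 bases with 3 matches of 7 letters, in windows at chr10:70423777-70423798, chr10:70425473-70425494 and chr10:70425814-70425835, all on the plus strand. The 7mer-m8 is ATAAGCT without the final A, and the 7mer-A1 is TAAGCTA without the first. EIF4E held a pair of 6mers in a UTR of 9344 bases, and EIF4G1 and EIF4B held a 6mer each. No match stood in the longest UTRs of EIF4A1, EIF4A2, EIF4G2, EIF4G3 and EIF4EBP1. Hence 5 of the 10 members had a match of at least 6 letters on the sense strand, compared with 27.9% of 11644 tested protein-coding genes with a 3′ UTR. An 8mer was the best match in 2.87% of those genes, a 7mer-m8 in 7.02%, a 7mer-A1 in 4.54% and a 6mer in 13.5%. The UTRs differ in length, from 430 to 9344 bases among the 10 members, and the counts describe letters in annotated UTRs, not binding.

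Values are FPKM, that is fragments scaled by gene length and by a library size, so levels of different genes are compared per length. The libraries held 10631667 to 14345209 reads, so that each read counted as 0.0731 to 0.0930 FPKM for a 1-kb gene. MIR21 itself was listed at 0 FPKM in every library, but polyA libraries do not capture a mature miRNA, so these zeros do not check the deletion. VMP1, the gene in whose 3′ part MIR21 lies, was higher in MIR21-KO, with a log2 fold change of 0.92 and an adjusted p of 0.000473 by limma. Of the epithelial markers, KRT8, KRT18 and KRT19 were at 484 ± 22.3, 673 ± 25.3 and 88.3 ± 4.73 FPKM in Ctrl and at 414 ± 61.3, 422 ± 82.2 and 109 ± 22.2 FPKM in MIR21-KO, none of them called (adjusted p = 0.207, 0.0153 and 0.206, limma). EPCAM was low at 1.19 ± 0.523 FPKM in Ctrl and 0.695 ± 0.288 in MIR21-KO and was not called (adjusted p = 0.273, limma), and CDH1 fell from 8.18 ± 0.584 to 2.86 ± 0.148 (SD, n = 3 per group, adjusted p = 0.000175, limma). The 5 epithelial markers summed to 1194 to 1288 FPKM in Ctrl and to 776 to 1106 in MIR21-KO. The 8 markers of blood, endothelial, muscle and fibroblast cells summed to 0.0869 to 0.302 FPKM in Ctrl and to 0.594 to 0.741 in MIR21-KO, where COL3A1 made up most of the sum, and CD3E was at 0 throughout. The part of these marker differences in the results below was not tested. In bulk RNA, more cells with a transcript and more transcript per cell cannot be told apart.

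PDCD4 mRNA showed the largest difference of the 10 genes. Ctrl libraries held 8.76, 8.90 and 9.89 FPKM of PDCD4 and MIR21-KO libraries 23.3, 23.4 and 25.5 FPKM. Every MIR21-KO library was above every Ctrl library, and the 435 to 615 reads per Ctrl library became 1301 to 1505. The group means were 9.18 ± 0.617 and 24.0 ± 1.27 FPKM (SD, n = 3 each), a 2.62-fold higher level in MIR21-KO. On the log2(FPKM + 0.1) scale, used for all fold changes here and always given as MIR21-KO over Ctrl, the difference was 1.38 ± 0.082 (SE), with a 95% interval of 1.19 to 1.57. Limma with Benjamini-Hochberg adjustment over all 16006 tested genes gave an adjusted p of 0.000123, and calls were made below 0.01. The PDCD4 fold change was at percentile 96.1 of all tested genes, so larger rises were also present in these cells. PDCD4 remained called in 19 of 19 alternative analyses, with log2 fold changes of 1.30 to 1.54.

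**Figure D1:**
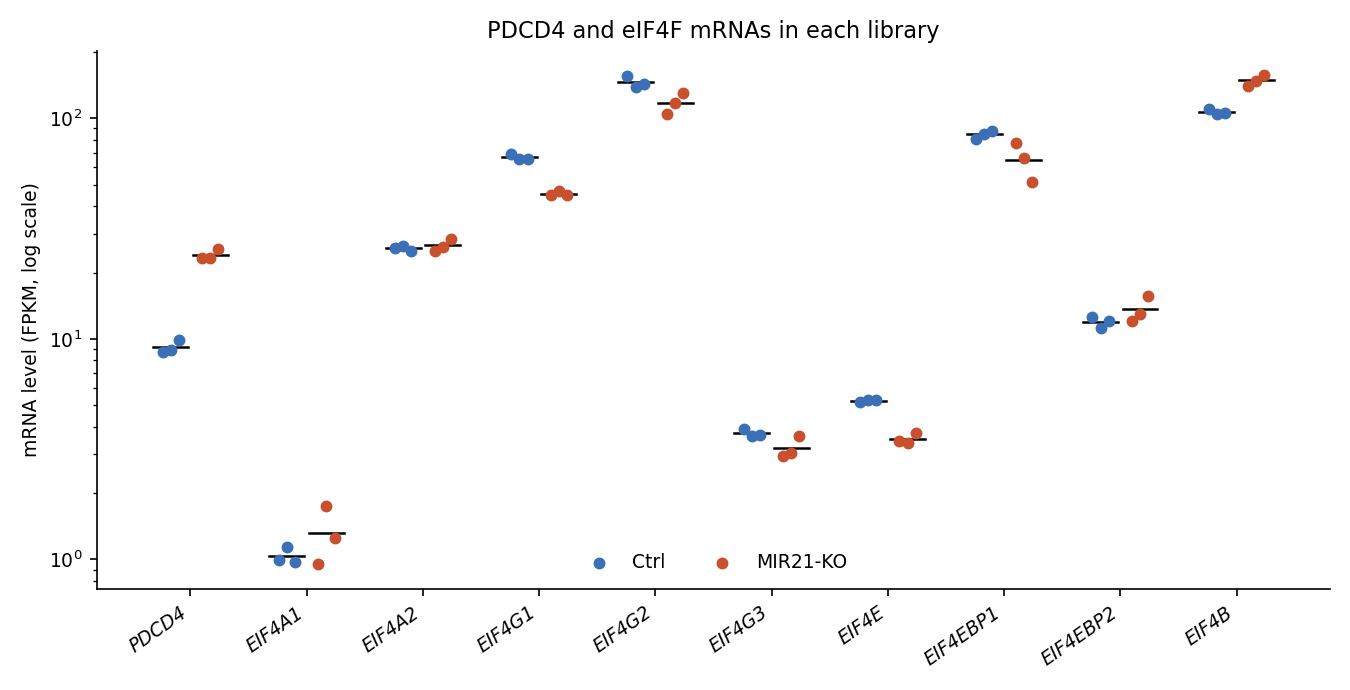
FPKM of the 10 mRNAs in each library on a log axis (points: 3 Ctrl libraries in blue, 3 MIR21-KO libraries in orange; horizontal lines: group means). PDCD4 moves from 9.18 to 24.0 FPKM, while EIF4A2 stays near 26 FPKM and EIF4A1 lies between 0.953 and 1.75 FPKM over both groups.

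PDCD4 (ENSG00000150593) spans chr10:110871795-110900006 on the plus strand of GRCh38. On the opposite strand BBIP1 shares 1277 bases with PDCD4 exons, 28.1% of them. BBIP1, examined after its annotation had been seen, was at 3.57 ± 0.336 FPKM and 3.70 ± 0.266 FPKM in Ctrl and MIR21-KO cells, with a log2 fold change of 0.05 and an adjusted p of 0.760 (limma). Its groups overlapped. PDCD4-AS1 is a noncoding gene read from the opposite strand at the PDCD4 start. Ctrl libraries held 4.14, 3.47 and 4.61 FPKM of it and MIR21-KO libraries 10.7, 10.7 and 8.92. The PDCD4-AS1 groups did not overlap, and the log2 fold change was 1.29 ± 0.133 (SE, adjusted p = 0.000923, limma), called in 18 of 18 alternatives. The gene spans of PDCD4 and PDCD4-AS1 share 439 bases, but no exon base. The libraries were strand-specific, yet whether counting used the strand is not given in the sources used here. If it did not, reads of opposite genes cannot be told apart where their exons overlap.

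Among the 10 mRNAs, 2 were higher (PDCD4 and EIF4B), 2 were lower (EIF4G1 and EIF4E) and 6 were not called. Over all tested genes, 16.0% were called in either direction, 7.66% as higher and 8.38% as lower. Among tested genes of at least 5 FPKM, the share was 22.1%. In 7 of the 10 genes the groups did not overlap, 2 with higher and 5 with lower MIR21-KO values, against 48.1% of all tested genes. The median log2 fold change was −0.09 for the 10 and −0.02 for all tested genes. The plot of fold changes with their intervals shows called mRNAs on both sides of 0.

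**Figure D2:**
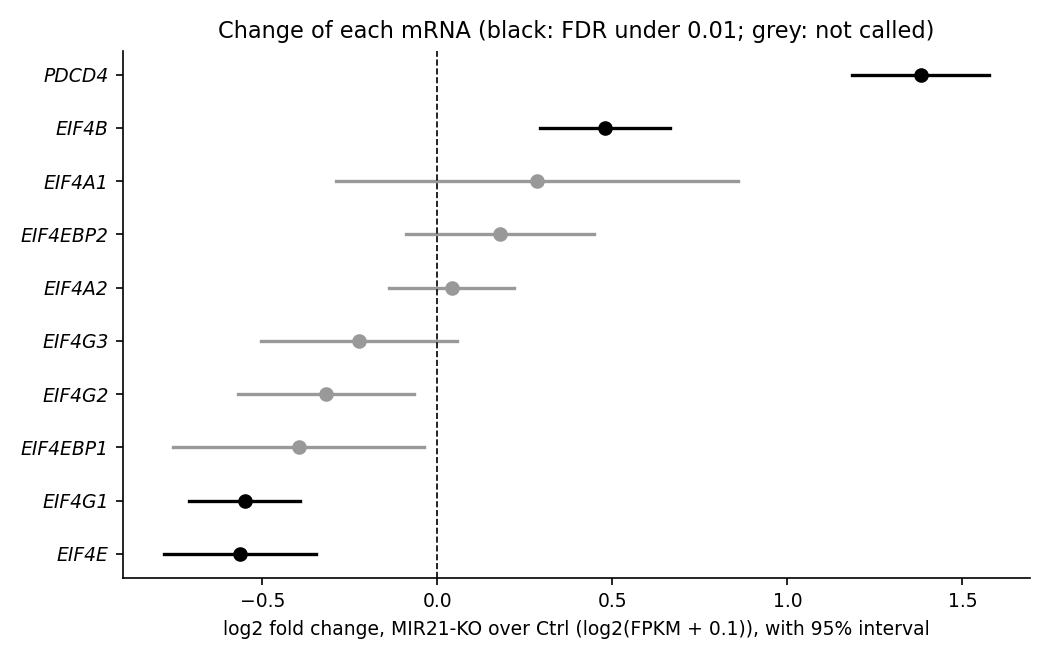
Log2 fold change of each mRNA, MIR21-KO over Ctrl, with its 95% interval from limma (n = 3 libraries per group; black: adjusted p under 0.01; grey: not called). PDCD4 at 1.38 lies apart from EIF4B at 0.48, and EIF4G1 and EIF4E lie at −0.55 and −0.56.

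eIF4A is the DEAD-box helicase that unwinds 5′ UTRs and the direct partner of PDCD4, and it is encoded by EIF4A1 and EIF4A2. EIF4A2 was at 25.7, 26.5 and 25.1 FPKM in Ctrl and at 25.1, 26.0 and 28.5 in MIR21-KO. The groups overlapped, and the log2 fold change of 0.04 ± 0.075 (SE) was not called (adjusted p = 0.711, limma). Its 95% interval of −0.14 to 0.22 gives the range of EIF4A2 differences that these libraries allow. No alternative called EIF4A2, and without MIR21-KO replicate 3 the sign of its fold change turned to −0.011.

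EIF4A1, usually the more abundant of the pair in proliferating cells, was listed at only 0.990, 1.14 and 0.977 FPKM in Ctrl and at 0.953, 1.75 and 1.25 in MIR21-KO, from 65 to 114 reads per library. The groups overlapped, and the log2 fold change was 0.29 ± 0.241 (SE) with a 95% interval of −0.29 to 0.86 and an adjusted p of 0.405 (limma). All bases of its longest coding transcript, ENST00000293831.12 with 1756 bases, also belong to other genes annotated on the same strand. Over all exons of EIF4A1 (ENSG00000161960, chr17:7572706-7579005, plus strand) the share was 48.6%. Besides 3 small nucleolar RNA genes (SNORA48, SNORA67 and SNORD10, 135 to 142 bases each), these genes were the readthrough gene SENP3-EIF4A1, which covers 1586 exon bases and held 1 to 10 reads per library, and ENSG00000264772, which held 1 read in all 6 libraries together. The processed pseudogene EIF4A1P10 on chromosome X, in turn, held 192 to 300 reads per library, 1.92 to 4.23 for every read given to EIF4A1. Of its 50-mers, 33.6% also occur in EIF4A1 transcripts. EIF4A1P10 stood at 17.1 ± 0.797 FPKM in Ctrl and 13.6 ± 1.29 in MIR21-KO, a log2 fold change of −0.34 that was not called (adjusted p = 0.0322, limma). Reads of EIF4A1 and of its copies cannot be told apart with certainty in these data. Over all 6 libraries together, EIF4A1 held 472 reads, SENP3-EIF4A1 31 and EIF4A1P10 1417, whereas EIF4A2 held 1745 to 2265 in each library. The low EIF4A1 level is therefore uncertain. Whether EIF4A1 reads are missing from all of these rows, and the part of shared exons in this, was not tested.

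The PDCD4 to eIF4A ratio sets the inhibitor mRNA against the summed FPKM of EIF4A1 and EIF4A2 within each library, where library scaling cancels. That sum was nearly all EIF4A2, since EIF4A1 was listed at 0.953 to 1.75 FPKM and EIF4A2 at 25.1 to 28.5. The ratio therefore describes PDCD4 against EIF4A2 as listed, not against all eIF4A mRNA. Gene lengths do not cancel, so the level of the ratio is not one of transcript numbers. The ratio was 0.328, 0.322 and 0.380 in Ctrl and 0.893, 0.842 and 0.859 in MIR21-KO. All MIR21-KO ratios lay above all Ctrl ratios, with means of 0.343 ± 0.032 and 0.865 ± 0.026 (SD, n = 3 each) and a log2 difference of 1.34. A two-sided exact permutation test gave p = 0.1, the smallest p that 3 against 3 libraries allow, and 0.15 after adjustment over the 6 ratios compared. Against EIF4A2 alone the log2 difference was 1.35, and with the reads of SENP3-EIF4A1 and EIF4A1P10 added to EIF4A1 it was 1.44. For the latter the pooled reads were divided by the 1216 bases of EIF4A1P10, not the 5316 of EIF4A1, which gives EIF4A1 more weight. Both differences were computed after the reads of the copies had been seen. The EIF4A2 to EIF4A1 ratio was 25.0 ± 1.48 in Ctrl cells and 21.3 ± 5.89 in MIR21-KO cells (SD, n = 3 each), with overlapping groups and an exact permutation p of 0.5. Its direction depended on whether the reads of the copies were added, with a log2 difference of −0.27 as listed and 0.21 with them. Which of those reads came from EIF4A1 is not known, so neither value settles the direction.

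**Figure D3:**
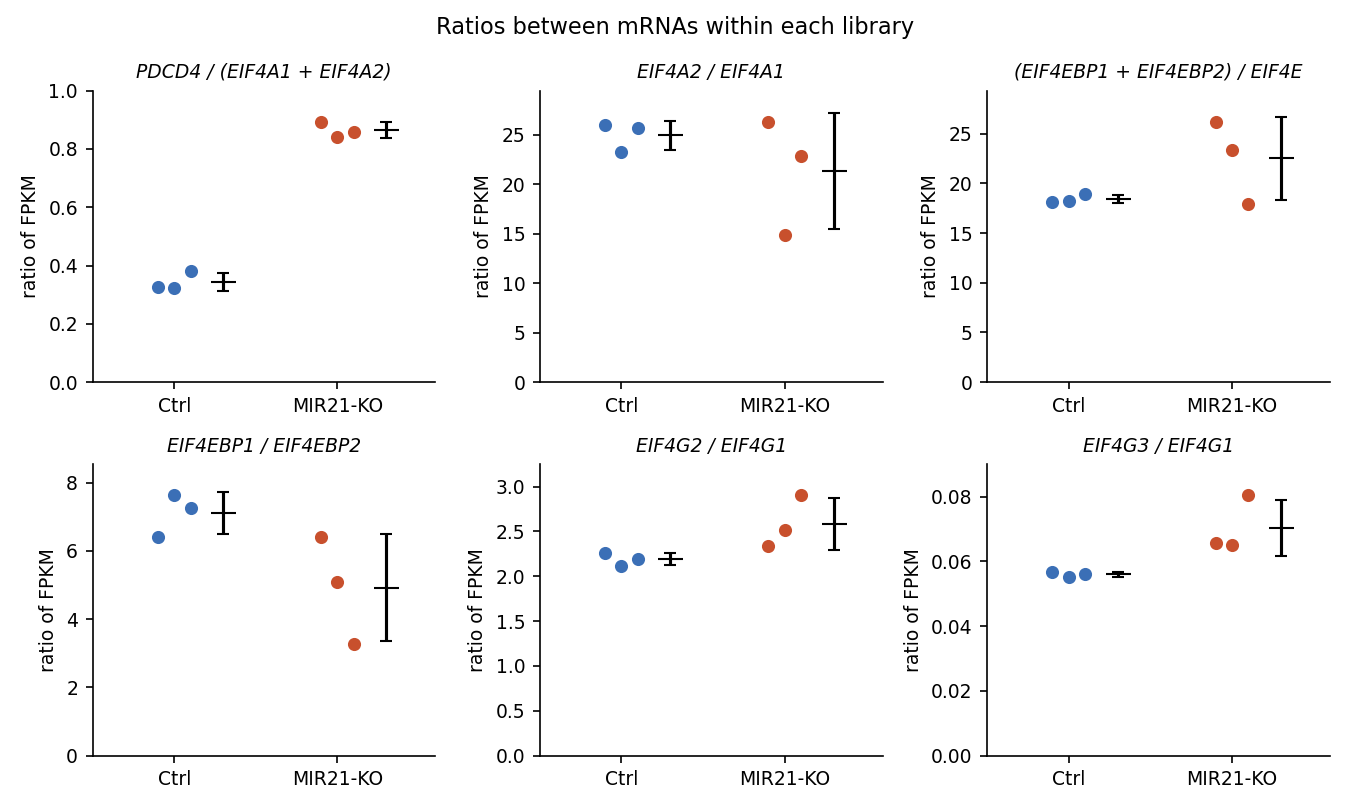
Ratios of FPKM between mRNAs within each library, on axes that start at 0 (points: 3 Ctrl libraries in blue, 3 MIR21-KO libraries in orange; black: mean ± SD). The PDCD4 to eIF4A ratio moves from 0.343 to 0.865, a log2 difference of 1.34, and the log2 differences of the other 5 ratios lie between −0.58 and 0.32. The eIF4A sum is nearly all EIF4A2 as listed.

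eIF4G is the scaffold that holds eIF4E, eIF4A and eIF3. EIF4G1, its main form, was at 69.2, 65.7 and 65.2 FPKM in Ctrl and at 44.7, 46.7 and 45.1 in MIR21-KO. The groups lay far apart relative to their spread, with 66.7 ± 2.18 and 45.5 ± 1.05 FPKM (SD, n = 3 each). EIF4G1 fell by 0.55 on the log2 scale, to 0.682 times the Ctrl level (SE 0.067, adjusted p = 0.00167, limma). The call held in 14 of 19 alternatives. Among others it was lost, with adjusted p of 0.0120 to 0.0137 (limma), without any 1 of the Ctrl libraries or without MIR21-KO replicate 2.

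EIF4G2 (also DAP5) lacks the eIF4E-binding part and is known for cap-independent translation. It held 156, 139 and 143 FPKM in Ctrl and 105, 117 and 131 in MIR21-KO. These groups did not overlap either, but the MIR21-KO libraries were spread widely, and the log2 fold change of −0.32 ± 0.106 (SE) was not called (adjusted p = 0.0605, limma). EIF4G3, a close relative of EIF4G1, had 3.91, 3.62 and 3.66 FPKM in Ctrl and 2.94, 3.03 and 3.62 in MIR21-KO, where the highest MIR21-KO value stood just under the lowest Ctrl value. Its log2 fold change was −0.22 ± 0.118 (SE, adjusted p = 0.195, limma).

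The scaffold forms were compared within each library. The EIF4G2 to EIF4G1 ratio was 2.19 ± 0.069 in Ctrl and 2.59 ± 0.289 in MIR21-KO, and the EIF4G3 to EIF4G1 ratio was 0.0560 ± 0.000755 and 0.0703 ± 0.00873 (SD, n = 3 each). Neither pair of groups overlapped, with log2 differences of 0.23 and 0.32. Both exact permutation tests gave p = 0.1 (adjusted p = 0.15), again the smallest value possible. No values could have passed the threshold with 3 libraries per group, so these tests do not decide whether the forms changed unequally.

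EIF4E encodes the cap-binding protein and is the limiting subunit in many cells. Ctrl libraries held 5.15, 5.29 and 5.28 FPKM and MIR21-KO libraries 3.43, 3.38 and 3.74. All MIR21-KO values were below all Ctrl values, and EIF4E fell by 0.56 on the log2 scale, to 0.671 times the Ctrl level (SE 0.091, adjusted p = 0.00467, limma). This call was the least stable of the 4. It held in 10 of 18 alternatives. Among others it was lost with each library's trends on GC content and gene length removed (adjusted p = 0.0526, limma), and without any 1 of the Ctrl libraries, MIR21-KO replicate 1 or MIR21-KO replicate 2 (0.0109 to 0.0288).

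The FPKM of EIF4E are divided by a length of 14067 bases, the union of all its exons, whereas the median of its 5 coding transcripts is 1097 bases. Its level relative to other genes therefore depends on which transcript is used. The processed pseudogene EIF4EP2 (chromosome 17), in which 82.1% of 50-mers also occur in EIF4E, held 0.142 to 0.176 reads for every EIF4E read. EIF4EP2 moved with EIF4E, from 18.9 ± 0.874 to 11.1 ± 1.17 FPKM (SD, n = 3 each, log2 fold change −0.76, adjusted p = 0.00184, limma). Reads of gene and copy cannot be told apart where they are identical.

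The 4E-BPs sequester eIF4E until mTORC1 phosphorylates them. EIF4EBP1 was at 80.7, 85.4 and 87.6 FPKM in Ctrl and at 77.7, 66.1 and 51.4 in MIR21-KO. All MIR21-KO values were lower, but they were also the most scattered of the highly expressed members, and the log2 fold change of −0.40 ± 0.150 (SE) was not called (adjusted p = 0.0883, limma). EIF4EBP1 has the highest GC content of the 10 genes, 65.5% over its longest transcript. When trends on GC content and gene length were removed from each library, its log2 fold change became −0.56 with an adjusted p of 0.000373.

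EIF4EBP2, the member with 3 seed matches of 7 letters, was at 12.6, 11.2 and 12.1 FPKM in Ctrl and at 12.1, 13.0 and 15.7 in MIR21-KO. The groups overlapped, and the log2 fold change of 0.18 ± 0.113 (SE) had a 95% interval of −0.09 to 0.45 and an adjusted p of 0.268 (limma). The EIF4EBP1 to EIF4EBP2 ratio was 7.10 ± 0.621 in Ctrl cells and 4.93 ± 1.58 in MIR21-KO cells (SD, n = 3 each, exact permutation p = 0.1, adjusted p = 0.15). The groups were barely separate, since Ctrl replicate 1 and MIR21-KO replicate 1 both stood at 6.42. The summed 4E-BP mRNAs per EIF4E mRNA were 18.4 ± 0.424 in Ctrl and 22.5 ± 4.19 in MIR21-KO, with overlapping groups and an exact permutation p of 0.4.

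eIF4B stimulates the helicase activity of eIF4A. EIF4B mRNA was at 109.7, 104 and 106 FPKM in Ctrl and at 141, 148 and 157 in MIR21-KO. It rose by 0.48 ± 0.078 (SE) on the log2 scale, 1.40-fold, with no overlap between groups and an adjusted p of 0.00486 (limma). The call held in 13 of 19 alternatives. Among others it was lost in limma without trend or robust fitting (adjusted p = 0.0111) and without any 1 of the Ctrl libraries or MIR21-KO replicate 2 (0.0251 to 0.0315). The pseudogenes EIF4BP6 and EIF4BP7, with at most 0.0137 reads for every EIF4B read, had log2 fold changes of 0.56 and 0.44 that were not called (adjusted p = 0.0222 and 0.104, limma).

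Ranked by mean FPKM, Ctrl cells held EIF4G2, EIF4B, EIF4EBP1, EIF4G1, EIF4A2, EIF4EBP2, PDCD4, EIF4E, EIF4G3 and EIF4A1 in falling order, and no neighbours in this order overlapped. In MIR21-KO cells EIF4B at 148.7 ± 8.04 FPKM stood above EIF4G2 at 117.6 ± 13.1. PDCD4 passed EIF4EBP2 and reached the range of EIF4A2, with 24.0 ± 1.27 against 26.5 ± 1.75 FPKM (SD, n = 3 each), and these neighbours overlapped. EIF4E at 3.52 ± 0.194 and EIF4G3 at 3.20 ± 0.372 FPKM overlapped as well. The orders of EIF4A1 and EIF4E carry the limits given above for shared reads and length. The length limit also touches other members. EIF4A2 is divided by 6133 bases but has a longest coding transcript of 1919 bases. For PDCD4 these are 4547 and 3697 bases. The order is therefore one of FPKM per listed gene length and does not count transcripts.

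The genes most like PDCD4 were sought by Pearson's r of log2(FPKM + 0.1) over the 6 libraries among 7550 other tested genes of at least 5 FPKM. SERPINE2, a serine protease inhibitor, came first with r = 0.999, followed by RARB, a retinoic acid receptor, with 0.998. PSMA3-AS1, an antisense RNA, SLC22A3, an organic cation transporter, and SNAP25, a membrane fusion protein, each had 0.997. All of them were higher in all MIR21-KO libraries, SLC22A3 for example with 28.3 ± 1.44 FPKM in Ctrl cells and 62.7 ± 4.05 in MIR21-KO cells (SD, n = 3 each). PSMA3-AS1 was called in only 8 of 18 alternatives, whereas SERPINE2, RARB, SLC22A3 and SNAP25 were called in 19 of 19. RARB, with means of 2.09 FPKM in Ctrl and 12.3 in MIR21-KO, reached the 5 FPKM filter only through MIR21-KO libraries. The same holds for PSMA3-AS1, with means of 4.95 and 6.70 FPKM. In total 900 genes reached r = 0.9 or more, all computed over the same 6 libraries, which form a pair of groups. EIF4B was at rank 222 with r = 0.982, and EIF4G1 ran opposite with r = −0.995.

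Further genes of the pathway were grouped by role. Of 13 eIF4F partners, which comprise other cap-binding proteins, helicases, poly(A)-binding proteins and the eIF4E kinases, 11 were tested, and 1 was higher and 1 lower in MIR21-KO. MKNK2, a kinase that docks on eIF4G and phosphorylates eIF4E, was at 13.5, 14.8 and 14.4 FPKM in Ctrl and at 39.4, 39.0 and 32.7 in MIR21-KO. Its log2 fold change of 1.37 ± 0.095 (SE) was close in size to that of PDCD4 (adjusted p = 0.000222, limma) and was called in 19 of 19 alternatives. PAIP1, which links the poly(A)-binding protein to eIF4A, fell from 36.3 ± 0.596 to 26.5 ± 1.39 FPKM (log2 fold change −0.45, adjusted p = 0.00401, limma). PAIP1 held its call in 12 of 19 alternatives and lost it, among others, without any 1 of the Ctrl libraries or MIR21-KO replicate 2 (adjusted p 0.0187 to 0.0241, limma). The related kinase MKNK1 was not called. The median over the 11 was −0.15, and the groups did not overlap in 8 of the 11, against 48.1% of all tested genes.

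Of the 14 rows of the eIF3 complex, which joins eIF4G to the ribosome, 2 were lower and the other 12 were not called. EIF3B, a core scaffold subunit, fell from 53.0 ± 1.96 to 33.2 ± 2.61 FPKM (log2 fold change −0.67, adjusted p = 0.00173, limma). EIF3J, a loosely bound subunit, fell from 33.6 ± 1.43 to 21.6 ± 0.756 FPKM (log2 fold change −0.63, adjusted p = 0.00112, limma). EIF3B held its call in 14 of 19 alternatives and EIF3J in 16. EIF3B lost it, among others, without any 1 of the Ctrl libraries or MIR21-KO replicate 2 (adjusted p 0.0101 to 0.0133, limma), and EIF3J without MIR21-KO replicate 2 (0.0108). The median over the 14 was −0.14, with 10 negative and 4 positive values, and the groups did not overlap in 9 of the 14, against 48.1% of all tested genes. EIF3C and EIF3CL are near-identical copies, so their values are uncertain.

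The 17 genes of mTORC1 signaling and PDCD4 turnover included the kinases acting on PDCD4 and the 4E-BPs and the ubiquitin ligase that degrades PDCD4 protein. Of these, 1 was higher and 1 lower. TBC1D7, a subunit of the TSC complex that restrains mTORC1, rose from 2.13 ± 0.165 to 4.10 ± 0.293 FPKM (log2 fold change 0.91, adjusted p = 0.00202, limma). CUL1, the scaffold of the ligase, fell from 29.8 ± 2.21 to 21.6 ± 1.14 FPKM (log2 fold change −0.46, adjusted p = 0.00712, limma). TBC1D7 lost its call, among others, without Ctrl replicate 2, Ctrl replicate 3 or MIR21-KO replicate 2 (adjusted p 0.0113 to 0.0161, limma). CUL1 lost it, among others, without any 1 of the Ctrl libraries or MIR21-KO replicate 2 (0.0246 to 0.0390) and without a filter on low values (0.0147). RPS6KB1, the S6 kinase that phosphorylates PDCD4, and FBXW11, a substrate receptor of the ligase, had log2 fold changes of −0.57 and −0.55 that were not called (adjusted p = 0.0131 and 0.0139, limma). They are named after their values had been seen. The median over the 17 was −0.17, and the groups did not overlap in 7 of the 17, against 48.1% of all tested genes. For these lists 2 of 11, 2 of 14 and 2 of 17 genes were called, which is near the 16.0% of all tested genes.

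**Figure D4:**
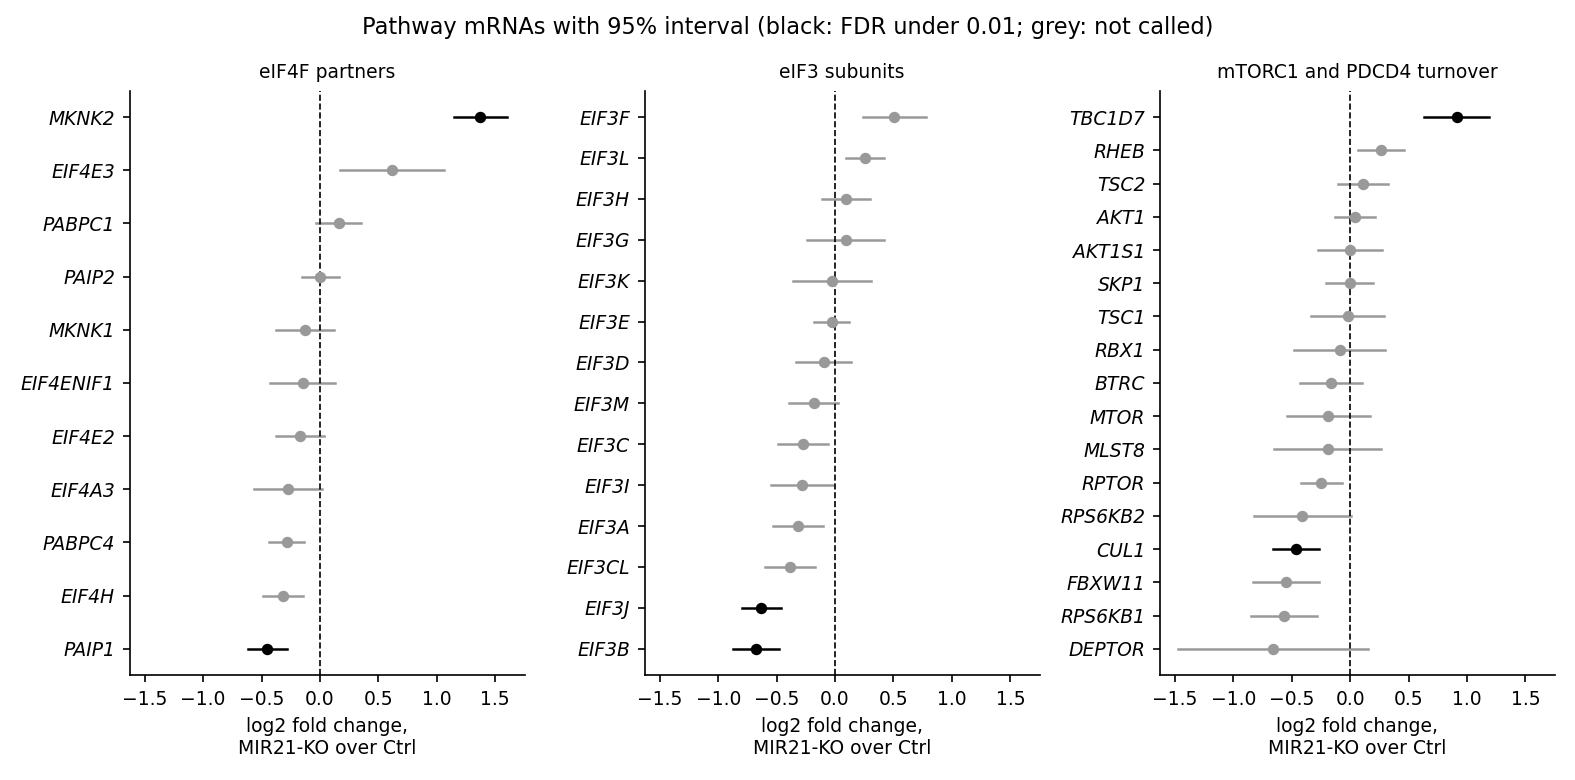
Log2 fold changes, MIR21-KO over Ctrl, of the tested eIF4F partners (11), eIF3 subunits (14) and mTORC1 and PDCD4 turnover genes (17), with 95% intervals from limma (n = 3 libraries per group; black: adjusted p under 0.01; grey: not called). MKNK2 at 1.37 and TBC1D7 at 0.91 lie to the right of the other pathway genes, which lie between −0.67 and 0.62.

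How far the calls depended on the analysis was examined by refitting all genes under 19 alternatives. PDCD4 stayed within 1.30 to 1.54 on the log2 scale. EIF4G1 ranged from −0.64 to −0.52, EIF4E from −0.61 to −0.42 and EIF4B from 0.44 to 0.52. For these the adjusted p lay on both sides of 0.01. EIF4A1, EIF4A2, EIF4G2, EIF4G3 and EIF4EBP2 were called in none, with lowest adjusted p of 0.158, 0.0587, 0.0126, 0.0511 and 0.0188 (limma). EIF4EBP1 was called in 2 of 19, with GC and length trends removed (adjusted p = 0.000373) and with the replicate block added (0.00646, limma). EIF4E was not called in either, so the called set changed there while its number stayed at 4.

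**Figure D5:**
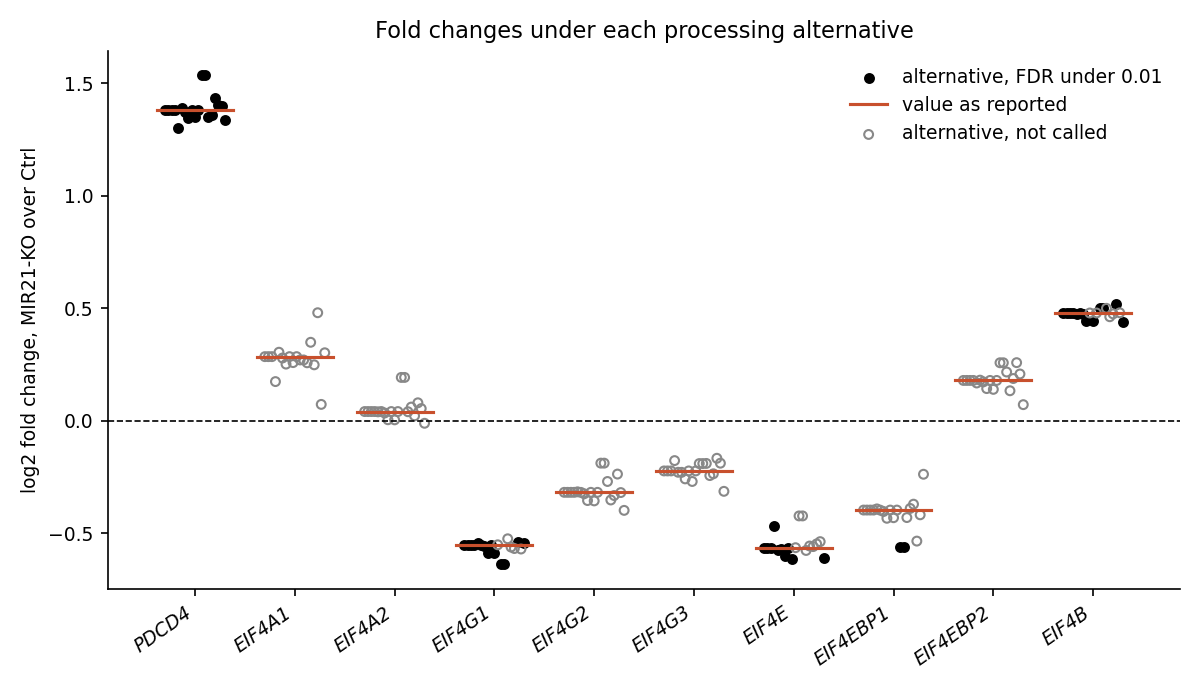
Log2 fold change of each of the 10 mRNAs, MIR21-KO over Ctrl, as reported (orange line) and under each processing alternative (points; filled: adjusted p under 0.01; open: not called). All PDCD4 points are filled and lie between 1.30 and 1.54, whereas EIF4G1, EIF4E and EIF4B have both filled and open points at similar heights.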

How the data were processed

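The authors deposited 1 table of FPKM per gene and library with gene lengths, which also holds results of their own comparison (fold change on a log2 scale, p-value, FDR), none of which was used. For the authors' steps, the submitters' processing notes name cutadapt 1.14, HISAT2 2.1.0, SAMtools 1.5, featureCounts 1.5.3, edgeR 3.18.1 and hg38; counting options and annotation are not given in the sources used here. FPKM times length gave whole reads for 100% of values (tolerance 0.01). The implied library sizes were 0.950 to 1.03 times the summed reads. All 37 mitochondrial genes are listed at 0, so a listed 0 can reflect processing. No library was a copy of another (lowest chi-square per degree of freedom 2.58). Pairs of Ctrl libraries reached at most 4.91. The MIR21-KO libraries differed more from each other, with 7.05 for replicates 1 and 2, 10.8 for 2 and 3 and 29.6 for 1 and 3.

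The 16006 genes averaging 0.5 FPKM or more entered limma on log2(FPKM + 0.1), version 3.58.1 (R 4.3.3; trend and robust fitting; two-sided; Benjamini-Hochberg; calls below 0.01). A count model was not used; voom on recovered reads was an alternative. In simulated data with 200 of 16006 genes changed 2-fold, 157 (78.5%) were recovered with 5 false calls. The simulation gave every gene the same dispersion and changed only genes above a minimum of reads. These figures therefore do not measure power or error rate in the real libraries. GENCODE 29 matched 57836 of 58174 genes and gave exons, GC content and the longest 3′ UTR of at least 30 bases; the table's length equalled its exon length in 95.3% of 2892 genes examined. Ratios were tested by exact permutation over libraries in Python 3.11.15, and figures drawn with matplotlib 3.10.9.

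Groups came from sample titles. Alternatives were other filters, pseudocounts, scalings, fits and thresholds, a replicate block, removal of GC content and length trends (lowess, span 0.3) and leaving out each library. Ratios with EIF4A2 alone or with reads of copies were added after seeing the data, as was BBIP1. Members and lists were chosen with earlier results of these data known. Named genes were the members, MIR21, VMP1, called genes of the lists, genes overlapping or copying a member, and the 5 most like PDCD4. Other genes named were cell type markers and uncalled list genes chosen after their values were seen. Of the marker genes, 1 is not reported here.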

Additional observations from a re-analysis of the deposited data

How the results depend on the processing

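The number of genes called over the whole table was 651 with the replicate block, 3960 with GC and length trends removed, 5114 at an adjusted p under 0.05 and 784 to 3418 when a library was left out. Rises made up 47.7% of calls, 39.2% among genes of at least 5 FPKM and 58.2% with the block. The 4 calls among the 10 mRNAs became 1 (PDCD4) with the replicate block and 1 to 4 with a library left out: 1 without each Ctrl library or MIR21-KO replicate 2. For eIF4F partners 2 became 1 without trend or robust fitting, 1 with the block, 5 with trends removed, 1 with trends removed and block, 5 at 0.05, and 1 to 3 with a library left out. For eIF3, 2 became 4 with scaling by total reads, 4 by voom, 0 with the block (limma; 7 at an unadjusted p under 0.05), 4 with trends removed, 6 at 0.05, and 0 to 3 with a library left out (0 without MIR21-KO replicate 2, with 7 unadjusted). For the mTORC1 and turnover genes 2 became 1 without a filter, 4 with at least 10 reads, 4 among protein-coding genes, 1 without trend or robust fitting, 4 by voom, 0 with the block (limma; 5 unadjusted), 6 with trends removed, 0 with both (8 unadjusted), 6 at 0.05, and 0 to 5 with a library left out (0 without Ctrl replicate 2, Ctrl replicate 3 or MIR21-KO replicate 2, with 6, 5 and 4 unadjusted). Leaving out any 1 library left the same number of samples, but the number of calls depended on which was left out. Over the whole table it was 784 without MIR21-KO replicate 2, 2189 without replicate 1 and 3418 without replicate 3. The causes were not tested.

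Of the 10 mRNAs and the 6 ratios, 2 changed sign: EIF4A2 to −0.011 without MIR21-KO replicate 3 (0.080 without MIR21-KO replicate 1, the highest with a library left out), and the EIF4A2 to EIF4A1 ratio from −0.27 to 0.21 with reads of the copies. With a library left out, the log2 differences spanned 1.29 to 1.41 for PDCD4 to eIF4A, −0.44 to −0.02 for EIF4A2 to EIF4A1, 0.16 to 0.43 for 4E-BP to EIF4E, −0.80 to −0.31 for EIF4EBP1 to EIF4EBP2, 0.15 to 0.30 for EIF4G2 to EIF4G1 and 0.22 to 0.38 for EIF4G3 to EIF4G1. Same-numbered libraries did not deviate together (r of −0.17, −0.018 and −0.017). With 3 libraries per group these r cannot settle whether the numbers pair the libraries, and the labels do not say. With the replicate block, adjusted p were 0.0220 for EIF4G1, 0.0354 for EIF4E and 0.0398 for EIF4B (limma), with unchanged log2 fold changes, and the ratios kept their mean differences, with an exact p of at least 0.25, the smallest that 3 pairs allow. EIF4A1, with at most 114 reads per library, had the fewest reads of the 10 members and carries the limit on shared reads given above. Intervals cover 3 libraries per group only.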

Other observations

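The table lists 13 pseudogene rows of EIF4A1, 9 of EIF4B, 5 of EIF4A2, 5 of EIF4E, 3 of EIF4EBP2 and 1 of EIF4EBP1, but none of PDCD4, EIF4G1, EIF4G2 and EIF4G3. EIF4BP3, a further EIF4B pseudogene that passed the filter, was at 0.640 ± 0.368 FPKM in Ctrl cells and 0.791 ± 0.194 in MIR21-KO cells (SD, n = 3 each) and was not called. EIF4EBP3, another 4E-BP gene, did not pass the filter, and ANKHD1-EIF4EBP3, the readthrough gene that ends in it, held 0.0680 ± 0.0143 FPKM in Ctrl and 0.0855 ± 0.0190 in MIR21-KO. SENP3, the upstream partner of EIF4A1 in the readthrough gene, was at 13.2 ± 0.647 and 9.97 ± 0.791 FPKM, with a log2 fold change of −0.40 that was not called (adjusted p = 0.0145, limma) and that 4 of 19 alternatives called. EIF4E3, which encodes a cap-binding relative of eIF4E, was at 0.853 ± 0.0221 FPKM in Ctrl and 1.37 ± 0.230 in MIR21-KO, opposite in sign to EIF4E, and was not called (adjusted p = 0.0451, limma); it is named after its values had been seen.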
